A study of Mus musculus with 576 samples.

Results

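The expression of 7 genes for transcription factors of the spleen and the splanchnic mesoderm, Nkx2-5, Nkx3-2, Tlx1, Barx1, Tcf21, Meis1 and Meis2, was followed in single cells of the mouse dorsal pancreas at E12.5 (embryonic day 12.5). They were chosen by symbol, all 7 were listed in the 3 count tables among 36658 genes, and they were read in the 549 of 576 cells that passed the filters on depth. Cells were isolated as GFP+ by FACS from C57BL/6J mice of mixed sexes and sequenced by Smart-seq2, in which each sorted cell fills 1 well and gives 1 library. In the Nkx2.5-Cre;mTmG line (Nkx2.5 line, plates 6A and 6B) and the Nkx3.2-Cre;mTmG line (Nkx3.2 line, plates 7A and 7B), Cre inserted at the driver gene switches the ROSA26 mTmG reporter to GFP in cells that have used the driver and in their descendants. GFP in these lines is therefore a record of lineage, and the driver gene need not be active at the time of sorting. In Prox1-GFP embryos (Prox1 line, plates 8A and 8B) a BAC transgene reports Prox1, which labels epithelium and part of the mesenchyme. No label names an embryo or litter, so each line was 1 sample and no test between lines was run. Line and plate cannot be told apart.

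The splanchnic mesoderm is the layer around the gut tube that gives rise to the mesenchyme of the stomach and pancreas and to the spleen. Tlx1 encodes a homeodomain factor without which the spleen does not form, and Nkx3-2 and Nkx2-5 encode NK-class homeodomain factors used early in the same tissue, Nkx2-5 being best known from the heart. Barx1 encodes a homeodomain factor of the stomach mesenchyme, and Tcf21 a bHLH factor of visceral mesenchyme that is also needed for the spleen. Meis1 and Meis2 encode TALE homeodomain proteins, which bind DNA together with PBX and HOX proteins.

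The Tlx1 promoter is shown because it was the only one of the 7 that held letters of both kinds searched for, those of MEIS and those of PBX proteins. Within 250 bases before the RefSeq start, the MEIS core TGACAG stood, on either strand, in 3 of the 7 genes and in 15.97% of 27025 promoters of the same length. It began 19 bases before the start of Nkx2-5, 243 before that of Nkx3-2 and, in Tlx1, at chr19:45150580-45150585, each time as its reverse complement. In the GENCODE annotation the matches of Nkx2-5 and Nkx3-2 lie in exons of these genes, and that of Tlx1 does not. The longer site TGATTGAT stood only in Tlx1, 44 bases before the start, and in 0.696% of all promoters. The 2 words do not overlap in the Tlx1 promoter. The stretch below lies outside the annotated exons of Tlx1, on the plus strand of GRCm38.p6 (RefSeq) at chr19:45150550-45150679. It was not compared with exons of other genes, such as the antisense gene Tlx1os. Its capitals mark the reverse complement of TGACAG and then TGATTGAT. A match of letters is not a binding site, and binding was not measured.
Tlx1 promoter: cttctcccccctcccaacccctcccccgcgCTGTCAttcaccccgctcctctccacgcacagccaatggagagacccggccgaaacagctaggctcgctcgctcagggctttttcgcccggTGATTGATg

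On GRCm38 (GENCODE M21), Nkx2-5 (ENSMUSG00000015579) lies at chr17:26838664-26845009 on the minus strand and Nkx3-2 (ENSMUSG00000049691) at chr5:41761483-41764501 on the minus strand. Tlx1 (ENSMUSG00000025215) lies at chr19:45150680-45156943 on the plus strand and Barx1 (ENSMUSG00000021381) at chr13:48662998-48666507 on the plus strand. Tcf21 (ENSMUSG00000045680) lies at chr10:22817281-22820174, Meis1 (ENSMUSG00000020160) at chr11:18879817-19018985 and Meis2 (ENSMUSG00000027210) at chr2:115863064-116065839, all on the minus strand. The kit does not mark strand, so reads of Tlx1 and Tcf21 cannot be told apart from those of the antisense genes Tlx1os and Gm10824 where they overlap. Meis1 overlaps 5 annotated genes, of which 2 are on the opposite strand.

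Passing cells held between 224814 and 1512736 counts, with medians of 1056674 (Nkx2.5 line), 896115 (Nkx3.2 line) and 808006 (Prox1 line). The median number of genes with a count was lowest where the counts were highest, at 5750, 7235 and 6993 in the same order. Clusters drawn without the 7 genes and their relatives gave 413 mesenchyme-like cells, with 87 and 81 in plates 6A and 6B, 92 and 76 in plates 7A and 7B, and 33 and 44 in plates 8A and 8B. In them all 10 mesenchymal markers were present, with summed levels by line of 4375 to 4927 CPM (counts scaled to library size), against 28.5 to 53.8 CPM for the 10 epithelial markers and 3.4 to 5.7 CPM for the 8 mesothelial ones. The other classes were 88 epithelial-like and 17 endocrine-like cells, all of the Prox1 line, and 29 mesothelial-like cells. In plate 8A, 2 further cells with far more endocrine or immune than mesenchymal marker counts were set aside after their values had been seen. Levels are CPM of counts summed over cells, a cell with at least 1 count is called positive, and the exact 95% intervals (Poisson for levels, binomial for shares) cover counting error only. Where no cell had a count, the limit printed is instead 3 cells over the number examined, which is somewhat below the exact upper bound drawn in the plot of detection by compartment.

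The 7 genes fell into a graded series, from Meis1, present in nearly every mesenchyme-like cell, to Nkx2-5, the least often detected. Meis1 had a count in 410 of the 413 cells (99.3%, interval 97.9 to 99.8), Meis2 in 381 (92.3%, 89.2 to 94.6) and Tcf21 in 348 (84.3%, 80.4 to 87.6). Nkx3-2 was detected in 46.97% of cells (42.1 to 51.9) and Barx1 in 43.3% (38.5 to 48.3), and these intervals overlap. Tlx1 was detected in 28.1% of cells (23.8 to 32.7) and Nkx2-5 in 26.6% (22.4 to 31.2), whose intervals also overlap. Divided by the union of exons, the level was 71.97 CPM per kilobase for Tcf21, 47.6 for Barx1, 47.5 for Meis1, 21.1 for Meis2, 14.3 for Nkx3-2, 13.2 for Tlx1 and 5.50 for Nkx2-5. Divided by the longest transcript instead, Meis1 was at 66.2 and Meis2 at 46.2 CPM per kilobase, with Barx1 again at 47.6. The place of Meis1 relative to Barx1 thus depends on the length taken, whereas Meis2 was below Barx1 by either. By either length Barx1 was above Nkx3-2 in level per kilobase, whose share of positive cells was like its own.

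The counts of Tlx1, Nkx2-5, Barx1 and Nkx3-2 came from fewer cells than those of Tcf21 and the Meis genes. The tenth of cells with the highest counts of a gene (42 of 413) held 72.3% of all Tlx1 counts, 68.8% of Nkx2-5 counts, 54.1% of Barx1 counts and 50.02% of Nkx3-2 counts, against 27.7% for Meis1, 30.3% for Meis2 and 33.3% for Tcf21. In cells with a count, the median level was 32.1 CPM for Nkx2-5, 40.2 for Nkx3-2, 76.1 for Tlx1 and 119.8 for Barx1. Barx1 in the Nkx3.2 line was detected in 33.3% of cells, whereas the median over 1735 genes of about the same level in that line (within 1.25-fold) was 51.8%, and 5.6% of those genes had a lower share. Nkx3-2 went the other way in all 3 lines, with 38.7%, 57.1% and 42.9% of cells in the lines Nkx2.5, Nkx3.2 and Prox1 against medians of 25.6%, 42.3% and 31.2% for genes of like level. Nkx2-5 did so too, with 20.8%, 29.2% and 33.8% against medians of 12.5%, 24.4% and 20.8%. At a given level, Nkx3-2 and Nkx2-5 were thus found in more cells, and Barx1 and Tlx1 in fewer, than the median gene in all 3 lines.

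**Figure D1:**
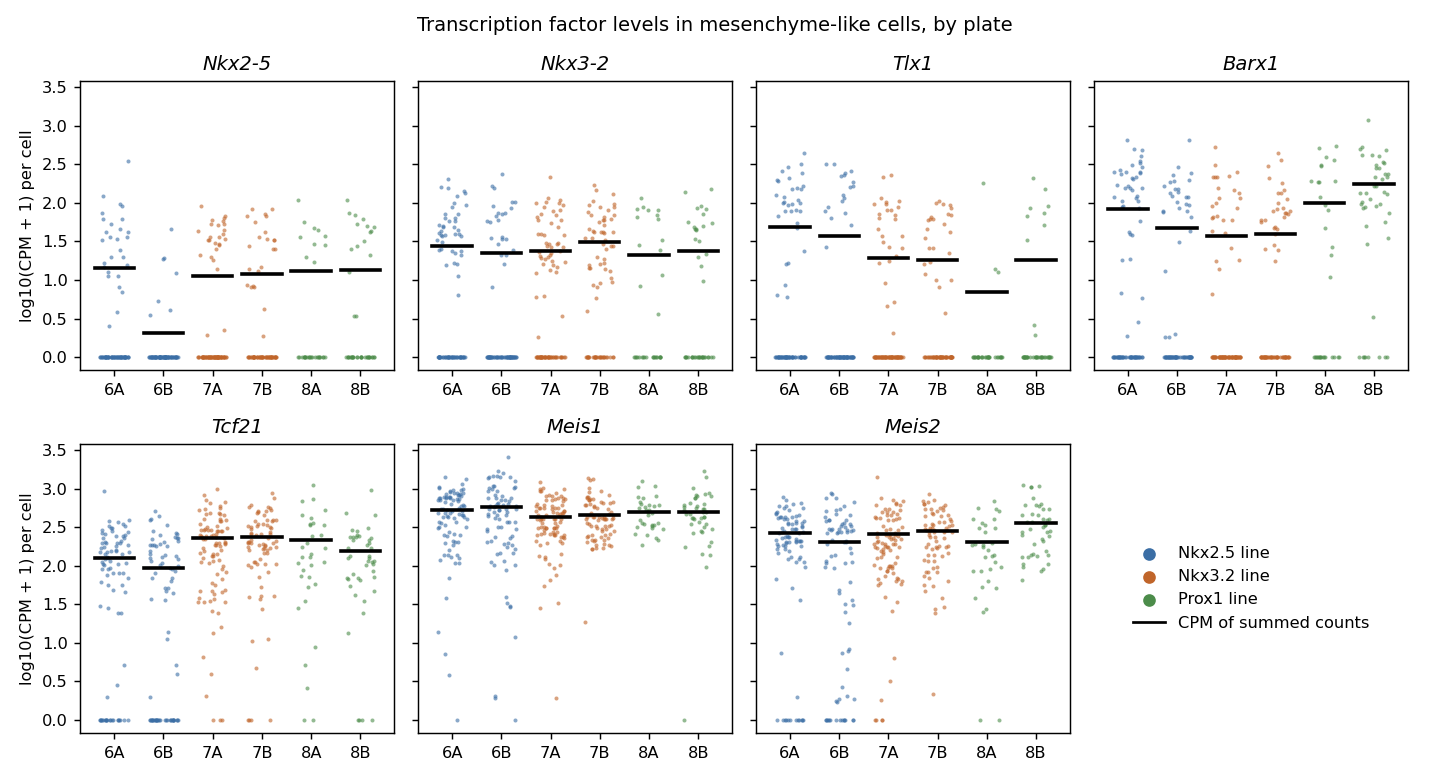
Level of each of the 7 genes in single mesenchyme-like cells, as log10(CPM + 1), by plate. Each point is a cell, spread sideways at random within its plate, and the black line is the CPM of the summed counts of the plate on the same scale. Plates 6A and 6B are the Nkx2.5 line, 7A and 7B the Nkx3.2 line, and 8A and 8B the Prox1 line. The line of Nkx2-5 stands at 1.1 CPM in plate 6B and between 10.3 and 13.5 CPM in the other 5 plates.

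Neither driver gene was detected in all of the cells that its Cre had labelled. Nkx2-5 was detected in 35 mesenchyme-like cells of its own line, 20.8% of them (14.96 to 27.8). The share was 29.2% (22.4 to 36.7) in the Nkx3.2 line and 33.8% (23.4 to 45.4) among Prox1 mesenchyme-like cells. The level of Nkx2-5 was 7.50, 10.6 and 12.3 CPM in the order Nkx2.5, Nkx3.2 and Prox1 line, so it was lowest in the line sorted through it. The plates of the Nkx2.5 line differed, with Nkx2-5 at 13.5 CPM and 32.2% of cells in plate 6A and 1.1 CPM and 8.6% of cells in plate 6B. The cell with the highest level of all, at 353 CPM, came from the Nkx2.5 line. Without the highest cell of each plate, Nkx2-5 stood at 12.2 CPM in plate 6A and 0.6 CPM in plate 6B.

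Nkx3-2 differed less. By line its level was 25.7 CPM (Nkx3.2), 24.3 CPM (Nkx2.5) and 21.9 CPM (Prox1), with plates at 27.04, 21.4, 23.1, 29.9, 20.1 and 23.1 CPM from 6A to 8B. It was found in more cells of its own line, at 57.1% (49.3 to 64.7), than of the Nkx2.5 line at 38.7% (31.3 to 46.5) or the Prox1 line at 42.9% (31.6 to 54.6). After each cell was thinned to 100000 counts the shares were 48.8%, 35.7% and 38.96% in the lines Nkx3.2, Nkx2.5 and Prox1, which ranked the lines as before thinning. Genes of like level ranked the lines in the same way, with median shares of 42.3%, 25.6% and 31.2%. The higher share in the Nkx3.2 line was therefore not particular to Nkx3-2. The zygosity of the Cre alleles is not given in the sources used here, and their part in the counts of either driver was not tested.

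Tlx1 was highest in the Nkx2.5 line. Its level was 48.2 and 36.7 CPM in plates 6A and 6B, 18.5 and 17.1 in plates 7A and 7B, and 5.9 and 17.1 in plates 8A and 8B, so both plates of the Nkx2.5 line lay above all others. The share of positive cells was nearly the same in the Cre lines, at 30.4% (23.5 to 37.9) in the Nkx2.5 line and 30.95% (24.1 to 38.5) in the Nkx3.2 line. The difference lay in the level per positive cell, with medians of 107.4 CPM and 48.7 CPM. Genes of like level to Tlx1 had median shares of 36.9% in the Nkx2.5 line and 33.9% in the Nkx3.2 line. Shares this close at these levels were therefore not particular to Tlx1. In the Prox1 line 13 of 77 cells had Tlx1 (16.9%, 9.3 to 27.1), 3 of them in plate 8A, where the level without the highest cell was 0.95 CPM.

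Barx1 was highest in the Prox1 line. Its level was 99.5 and 176.1 CPM in plates 8A and 8B, 83.4 and 45.8 in plates 6A and 6B, and 36.5 and 38.6 in plates 7A and 7B. It was detected in 68.8% of mesenchyme-like cells of the Prox1 line (57.3 to 78.9), 41.7% of the Nkx2.5 line (34.1 to 49.5) and 33.3% (26.3 to 41.01) in the line with the Nkx3.2 driver. The highest cell of each held 1190, 655 and 538 CPM in the same order. Tcf21 stood at 126.6 and 93.3 CPM in the plates of the Nkx2.5 line, 228 and 238 in those of the Nkx3.2 line, and 217 and 152.9 in those of the Prox1 line. It was detected in 69.05% of cells of the Nkx2.5 line and 95.8% of the Nkx3.2 line, and the plates of the Nkx2.5 line were the lowest of the 6.

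Meis1 and Meis2 were found in most cells of every line. Meis1 was at 523 and 584 CPM in the plates of the Nkx2.5 line, 430 and 454 in those of the Nkx3.2 line, and 503 in both of the Prox1 line. Meis2 was at 261 and 200, 255 and 280, and 200 and 355 CPM in the same order, so its plates overlapped between all 3 lines. Cells called as G1 by their expression had more Meis1 than cells called G2/M in every line, with 558 against 445 CPM (Nkx2.5), 548 against 367 (Nkx3.2) and 587 against 420 (Prox1). Cells called S had 617, 343 and 440 CPM in the same order, above the G1 cells in the Nkx2.5 line and below them in the others. Depth was not matched between the phases.

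Set against each other, the Cre lines differed by 2-fold or more, with the same direction in all 4 pairs of plates, in 2 of the 7 genes. Tlx1 was higher in the Nkx2.5 line (log2 ratio 1.25, 0.99 to 1.50 over the pairs of plates, 2.38-fold) and Tcf21 was lower (log2 ratio -1.07, -1.35 to -0.85). Over the 11352 genes at 5 CPM or more, 4.59% were past this threshold on the higher side and 6.33% on the lower side, and with 7 genes a count of 1 in each direction cannot be set apart from these shares. Barx1 was 1.75-fold higher in the Nkx2.5 line, with log2 ratio 0.81 (0.25 to 1.19), and Meis1 had 0.33 (0.20 to 0.44), both short of the threshold. Nkx2-5 had -0.49 (-3.37 to 0.39), Nkx3-2 -0.08 (-0.48 to 0.23) and Meis2 -0.19 (-0.49 to 0.03), which changed sign between pairs. The median log2 ratio was -0.08 over the 7 genes and 0.01 over all genes tested.

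**Figure D2:**
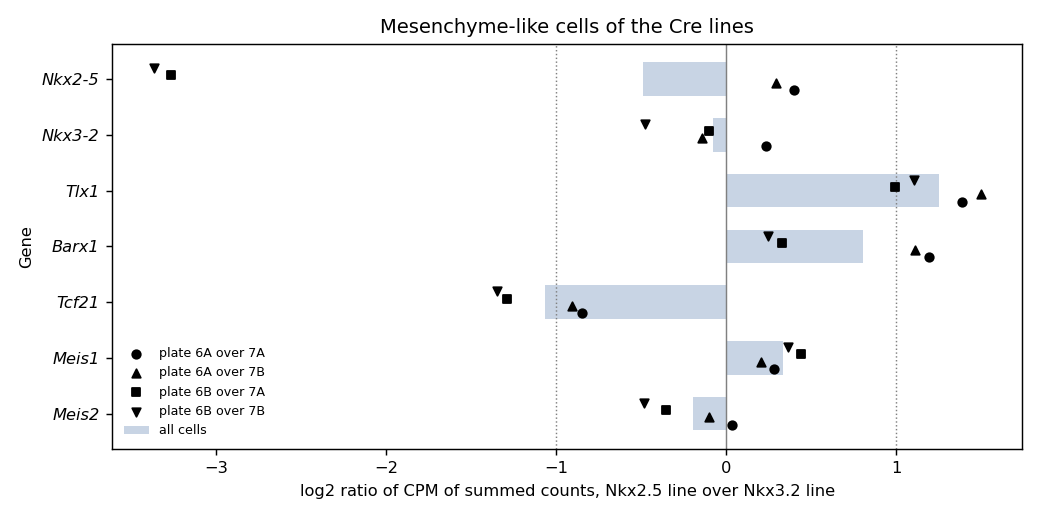
Log2 ratio of the level in mesenchyme-like cells, Nkx2.5 line over Nkx3.2 line, for the 7 genes, over all cells (bars) and for each of the 4 pairs of plates (symbols), with dotted lines at 2-fold. Only Tlx1 (1.25) and Tcf21 (-1.07) are past 2-fold with all pairs on one side, and the pairs of Nkx2-5 run from -3.37 to 0.39.

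These ratios depend on which mesenchyme-like clusters each line filled. Cluster 6, led by the mural genes Acta2 and Tagln, held 1 cell of the Nkx2.5 line and 32 of the Nkx3.2 line. It had no Tlx1 count in 39 cells, which allows a share of up to 7.69%, and Tcf21 at 355 CPM. Without this cluster the log2 ratio was 0.96 for Tlx1, 1.30 for Barx1 and -0.85 for Tcf21, so that Tlx1 and Tcf21 fell short of 2-fold and Barx1 passed it. Cluster 2 was unbalanced the other way, with 60 cells of the Nkx2.5 line and 5 of the Nkx3.2 line. The ratios were not recomputed without cluster 2 alone. Within the 4 clusters that held at least 19 cells of each Cre line (0, 1, 3 and 4), Barx1 was higher in the Nkx2.5 line in all 4, with 62.3 against 18.9, 42.1 against 19.9, 23.1 against 17.9 and 83.8 against 12.2 CPM. Tlx1 was higher in the Nkx2.5 line in clusters 0, 1 and 3, with 55.3 against 23.4, 57.7 against 13.8 and 105.1 against 34.3 CPM, and lower in cluster 4, with 13.98 against 17.7 CPM. Tcf21 was lower in the Nkx2.5 line in all 4, with 87.3 against 116.7, 108.003 against 237, 146.5 against 222 and 119.2 against 135.9 CPM in the same order.

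Across clusters, Tlx1, Nkx2-5 and Nkx3-2 were highest in the same one, cluster 3, where Barx1 was lowest. Cluster 3 was led by Robo2, a receptor for Slit guidance cues, Kazald1 and the secreted Wnt inhibitor Frzb, and held 20 cells from Nkx2.5, 40 from Nkx3.2 and 1 from Prox1 embryos. Among its 61 cells, 36 had Tlx1, 32 had Nkx2-5 and 46 had Nkx3-2, at 58.1, 27.2 and 35.8 CPM, and 11 had Barx1, at 19.4 CPM. Cluster 9 was the opposite, led among others by Ecel1, with 7 Nkx3.2-line and 16 Prox1-line cells. Of its 23 cells 19 had Barx1, at 211 CPM, all 23 had Tcf21, at 451 CPM, and 1 had Tlx1. Nkx2-5 was nevertheless present in 7 of the 23, at 14.2 CPM, second to cluster 3. In cluster 6 Nkx2-5 was at 1.32 CPM and Nkx3-2 at 10.8 CPM, the lowest of the 7 mesenchyme-like clusters, while Meis1 at 618 and Meis2 at 391 CPM were the highest.

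**Figure D3:**
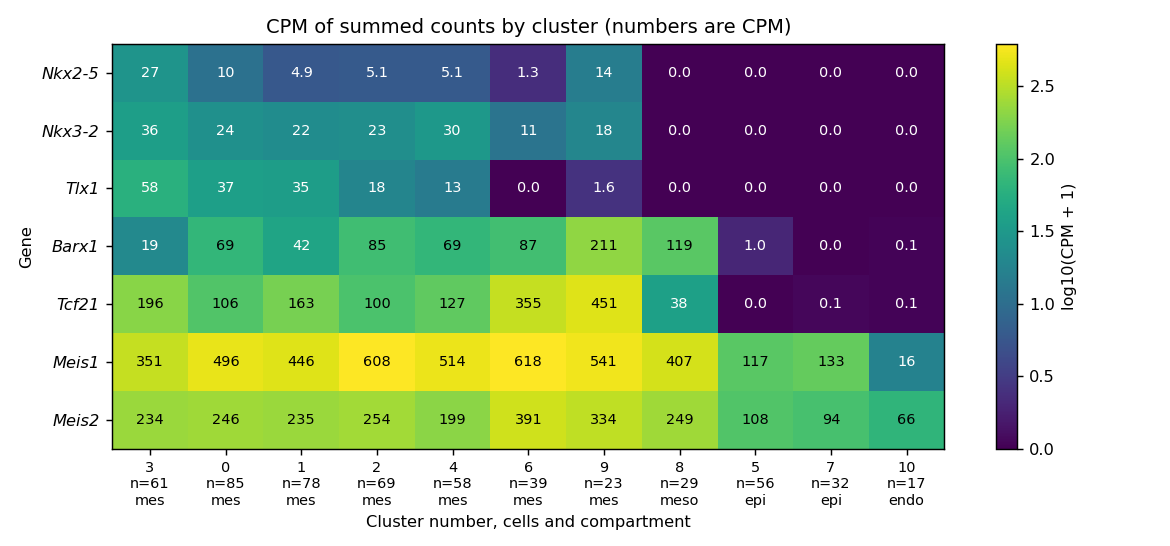
Level of each of the 7 genes by cluster, as CPM of summed counts in the cells of the grid and as log10(CPM + 1) in colour, with the clusters drawn without these genes (mes, mesenchyme-like; meso, mesothelial-like; epi, epithelial-like; endo, endocrine-like). Cluster 3 has the highest Tlx1 (58.1 CPM), Nkx2-5 (27.2 CPM) and Nkx3-2 (35.8 CPM) and the lowest mesenchyme-like Barx1 (19.4 CPM), and cluster 9 has the highest Barx1 (211 CPM) and Tcf21 (451 CPM).

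Plate 6A held 19 of the 20 cluster 3 cells of the Nkx2.5 line and plate 6B held 1. Outside cluster 3, Nkx2-5 was at 6.25 CPM (5.68 to 6.86) in 16 of 68 cells of plate 6A and at 1.05 CPM (0.84 to 1.30) in 6 of 80 cells of plate 6B. The level of Nkx2-5 thus still differed between the plates of the Nkx2.5 line, by less than over all cells. Without the highest cell of each plate it was 5.06 and 0.56 CPM there. The shares of positive cells were 23.5% (14.1 to 35.4) and 7.5% (2.8 to 15.6), whose intervals overlap. The intervals of the levels take reads as independent, which PCR copies are not. Tlx1 outside cluster 3 was at 34.2 CPM in plate 6A and 34.9 in plate 6B, and at 14.9 and 8.80 in plates 7A and 7B, so its order between the Cre lines was the same there.

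Cells with 1 of the genes Nkx2-5, Nkx3-2 and Tlx1 more often had another of them than cells without it. Of the 110 mesenchyme-like cells with Nkx2-5, 63.6% also had Nkx3-2 (53.9 to 72.6), against 40.9% (35.3 to 46.7) of those without it. The difference was 19.7, 20.2 and 28.2 percentage points in the lines Nkx2.5, Nkx3.2 and Prox1, and it was positive in all 6 plates (9.5 to 39.6). Tlx1 was found in 44.5% of cells with Nkx2-5 (35.1 to 54.3) and 22.1% of those without (17.6 to 27.2), with differences of 19.4, 28.3 and 20.97 points in the 3 lines. It was positive in 5 plates (15.7 to 34.1 points) and -8.69 points in plate 6B, which held 7 cells with Nkx2-5. Tlx1 was found in 37.6% of cells with Nkx3-2 (30.8 to 44.9) and 19.6% of those without (14.6 to 25.5), with positive differences in all 6 plates (3.9 to 34.5 points). Cells with Nkx2-5 had more genes detected than cells without it, with medians of 6128 against 5510 (Nkx2.5 line), 7318 against 7165 (Nkx3.2 line) and 6478 against 6296 (Prox1 line), so the differences were also taken after thinning each cell to 100000 counts. Thinned, Tlx1 with Nkx2-5 differed by 6.45, 20.7 and 13.7 points and Nkx3-2 with Nkx2-5 by 21.5, 17.01 and 16.04 points in the lines Nkx2.5, Nkx3.2 and Prox1. The difference for Tlx1 was thus smaller at equal depth in every line, most of all in the Nkx2.5 line. Thinning does not match the number of genes per cell, whose part was not tested.

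Cluster 3 carried some of these pairs and not others. Inside it, Tlx1 was found in 34 of 46 cells with Nkx3-2 (73.9%, 58.9 to 85.7) and in 2 of 15 without (13.3%, 1.7 to 40.5). In the other mesenchyme-like clusters the shares were 26.4% (19.5 to 34.2) and 20.1% (14.8 to 26.3), whose intervals overlap. Tlx1 with Nkx2-5 behaved otherwise, at 62.5% (43.7 to 78.9) against 55.2% (35.7 to 73.6) inside cluster 3 and 37.2% (26.5 to 48.9) against 18.6% (14.2 to 23.7) outside it. Nkx3-2 with Nkx2-5 differed by a like amount in both places, 18.9 points inside and 16.8 points outside. Barx1 was found in 7 of 36 cells with Tlx1 (8.2 to 36.02%) and 4 of 25 without (4.5 to 36.1%) inside cluster 3, and in 38.8% (28.1 to 50.3) and 50.4% (44.3 to 56.5) outside it. This split was chosen after the values had been seen. It pools the lines and was not made by line. Cluster 3 held 1 cell of the Prox1 line, so that line, high in Barx1 and low in Tlx1, lay almost wholly outside it.

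In the Cre lines Barx1 was detected in a lower share of the cells with Tlx1 than of those without, by an amount near the counting error. The shares were 29.4% of cells with Tlx1 (17.5 to 43.8) and 47.01% of those without (37.7 to 56.5) in the Nkx2.5 line, and 23.1% (12.5 to 36.8) and 37.9% (29.1 to 47.4) in the Nkx3.2 line. The interval of the difference was -31.6 to -1.41 points in the first and -27.9 to 0.62 in the second, where the difference moved from -14.9 to -7.88 points without cluster 6. The difference was negative in all 4 plates of these lines, at -27.1, -10.3, -4.8 and -27.1 points, while the intervals of each pair of shares overlapped. In the Prox1 line it was positive in both plates, with Barx1 in 11 of 13 cells with Tlx1 (84.6%, 54.6 to 98.1) and in 65.6% of those without (52.7 to 77.1). With Nkx2-5 the plates had no common direction. Barx1 was found in 52.7% of cells with Nkx2-5 (42.98 to 62.3) and 39.9% of those without (34.4 to 45.7), with differences of 12.3, 4.8 and 23.8 points in the lines Nkx2.5, Nkx3.2 and Prox1 and of -1.03, 38.996, 12.7, -4.84, 55.2 and -0.89 points in the plates from 6A to 8B. With Nkx3-2 the differences of Barx1 were 7.32, -2.43 and 28.03 points, and Tcf21 differed by 1.63, 0.89 and 0.79 points between cells with and without Barx1.

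**Figure D4:**
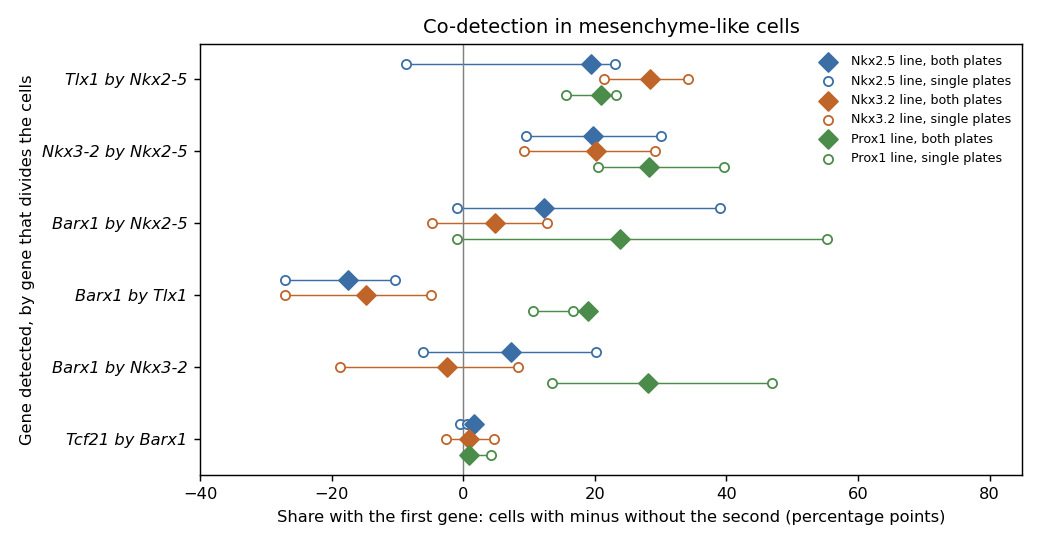
Share of mesenchyme-like cells with the gene named first, in cells with minus cells without the gene named second, in percentage points, for 6 pairs. Diamonds are the lines, open circles their single plates, joined by a thin line. Nkx3-2 with Nkx2-5 is above 0 in all 6 plates, and Barx1 with Tlx1 is below 0 in the 4 plates of the Cre lines and above 0 in both plates of the Prox1 line.

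Among the 413 mesenchyme-like cells, 24.2% had Tlx1 or Nkx2-5 without Barx1, 24.7% had Barx1 without either, 18.6% had both kinds and 32.4% had none of the 3. In the Prox1 line the same groups had 5, 27, 26 and 19 cells. Isl1, which encodes a LIM homeodomain factor, was at 25.6 CPM in the first group and 179.2 CPM in the second, and it was lower in the first in all 6 plates. Meis1 was at 404 and 613 CPM and Meis2 at 207 and 339 CPM. Nkx3-2 had no common direction, with 34.8 against 36.4 CPM in the Nkx2.5 line, 39.02 against 16.8 in the Nkx3.2 line and 11.4 against 22.2 in the Prox1 line. Of the 5 genes other than the Meis genes, all 5 were detected in 1, 7 and 6 cells and none in 18, 1 and 1 cells of the lines Nkx2.5, Nkx3.2 and Prox1.

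The genes whose levels most resembled those of the 7 over single cells were few. The mean Spearman rho over the 6 plates, within each plate and among 10661 or 10662 genes in 413 cells, was 0.43 between Nkx3-2 and Rgs17, which encodes a regulator of G-protein signalling, and 0.37 between Tlx1 and Kazald1. It was 0.35 between Barx1 and Isl1, 0.32 between Barx1 and Igf1, a growth factor, and 0.31 between Tcf21 and Igfbp5, which encodes an IGF-binding protein. Each was above 0 in all 6 plates. For Nkx2-5, Meis1 and Meis2 no gene reached a mean of 0.3, the highest for Nkx2-5 being 0.24. Between the 7 genes themselves the values were weak, from -0.15 for Tlx1 with Meis1 to 0.20 for Barx1 with Meis2. They were 0.17 for Nkx2-5 with Nkx3-2, 0.15 for Tlx1 with Nkx3-2 and -0.14 for Nkx3-2 with Tcf21. Nkx2-5 was not compared with Tlx1. Each was found in under 10% of the mesenchyme-like cells of a plate, Nkx2-5 in 6B and Tlx1 in 8A. The cells of a plate share depth and composition, and these values are descriptions.

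All 7 genes were higher in mesenchyme than in epithelium of the same plates. In the 88 epithelial-like cells of the Prox1 line, Nkx2-5, Nkx3-2 and Tlx1 had no count, which allows shares of up to 3.41%, against 33.8%, 42.9% and 16.9% of the 77 mesenchyme-like cells. With 3 counts taken as the floor over the epithelial-like group, the levels in mesenchyme were 305-fold, 542-fold and 313-fold above that floor. PCR copies count as separate reads, so a single positive cell may hold more than 3 counts. These folds are therefore not lower bounds. Barx1 was detected in 1 epithelial-like cell and Tcf21 in 2, and their log2 ratios of mesenchyme over epithelium were 7.78 and 11.84. Meis1 and Meis2 were present in both, in 73 and 77 of the 88 epithelial-like cells, at 122.5 and 103.5 CPM against 503 and 293 CPM in the mesenchyme. Their log2 ratios were 2.04 for Meis1 (2.08 in plate 8A, 1.99 in plate 8B) and 1.50 for Meis2 (0.81 and 1.95). With both plates in one direction all 7 genes were 2-fold or more higher in mesenchyme, a threshold that 14.3% of 12118 genes passed on the higher side and 15.8% on the lower side. The median log2 ratio was 4.91 over the 4 genes with counts on both sides, against 0.01 over all genes. It was 8.25 over all 7 with the other 3 set at the floor of 3 counts, and this value depends on that floor. The 2 epithelial-like clusters were cluster 5, led among others by the tip gene Cpa1, and cluster 7, led by Spp1 and the endocrine marker Neurog3. Meis1 was at 117.3 and 133.1 CPM and Meis2 at 108.3 and 93.6 CPM in them, and all 7 genes were past the threshold against either alone.

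**Figure D5:**
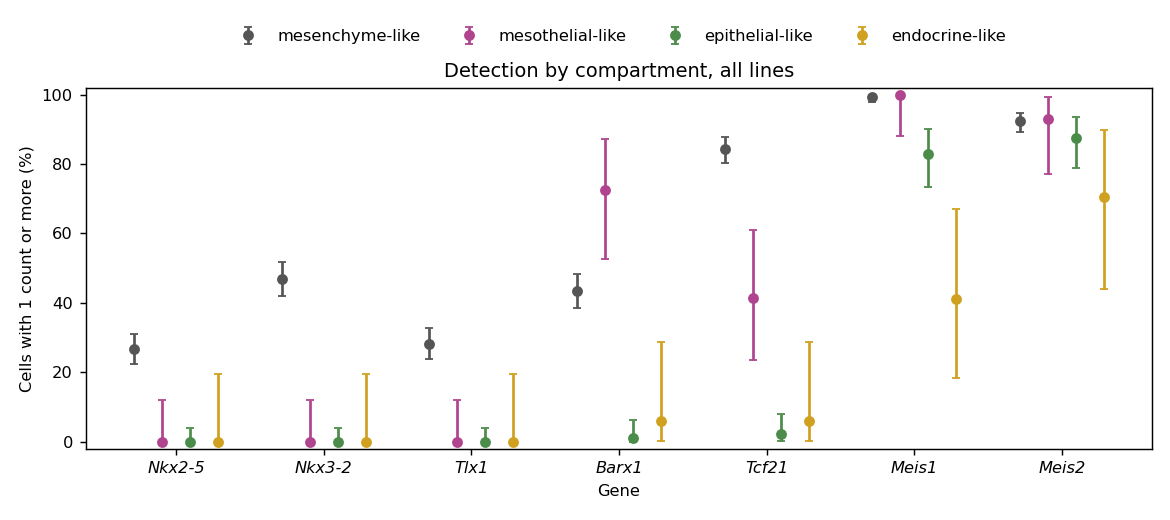
Share of cells with at least 1 count of each gene in mesenchyme-like, epithelial-like, endocrine-like and mesothelial-like cells, with exact 95% binomial intervals. Nkx2-5, Nkx3-2 and Tlx1 are at 0 outside the mesenchyme-like cells, whereas Barx1 reaches 72.4% and Tcf21 41.4% of mesothelial-like cells.

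Mesothelial-like cells, of the layer that covers the organ, shared Barx1, Tcf21 and the Meis genes with the mesenchyme but not the other 3. Nkx2-5, Nkx3-2 and Tlx1 had no count in any of the 29, which allows shares of up to 10.3%. Barx1 was found in 21 of them (72.4%, 52.8 to 87.3), at 118.8 CPM. The 29 were 23 cells of the Nkx3.2 line, 20 of them from plate 7B, 5 of the Nkx2.5 line and 1 of the Prox1 line. Barx1 was at 142.3 CPM in the first against 37.3 CPM in the mesenchyme of that line, and at 48.8 against 65.3 CPM in the Nkx2.5 line. The cell of the Prox1 line had no Barx1, Tcf21 or Meis2 count and 1 Meis1 count, with epithelial markers at 4111, endocrine at 3939, mesenchymal at 0 and mesothelial at 484 CPM, so its markers go against its class. Tcf21 was found in 12, at 37.6 CPM, Meis1 in all 29, at 407 CPM, and Meis2 in 27, at 249 CPM. In the 17 endocrine-like cells Barx1 and Tcf21 had a count in 1 cell each, Meis1 in 7 and Meis2 in 12, at 16.2 CPM for Meis1 and 66.1 CPM for Meis2.

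Few close relatives of the 7 genes were detected in the mesenchyme. Among the paralogs examined, Nkx2-6, Tlx2, Tlx3 and Barx2 had no count in the 413 cells, and Msc, the nearest relative of Tcf21, was found in 5. Nkx2-3, an NK-class gene of gut and spleen mesenchyme, was at 127.4, 154.3 and 142.1 CPM in the lines Nkx2.5, Nkx3.2 and Prox1 and was found in 72.2% of the cells, more than either driver. Meis3 was at 66.3 CPM. None of the 2 paralogs and 5 genes for TALE partners tested was past 2-fold between the Cre lines. Of 7 other factors tested 1 was, Hlx, a homeobox gene of visceral mesenchyme, with a log2 ratio of -1.75 and levels of 3.48 and 11.7 CPM. Over all genes tested 4.59% were past it on the higher side and 6.33% on the lower side, from which these few genes cannot be set apart. Against epithelium, 2 of 2 paralogs (Nkx2-3 and Meis3), 2 of 6 genes for TALE partners (Pknox2 among them) and 8 of 10 other factors were higher in mesenchyme, and Gata4 and Sfrp5 were lower. Over all genes tested the shares were 14.3% on the higher side and 15.8% on the lower side.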

How the data were processed

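Single GFP+ cells of 3 mouse lines, 576 in all, were profiled with single-end reads. The authors trimmed reads (Trim Galore 0.6.5, per the labels), quantified them with kallisto on GRCm38 and deposited expected counts per gene and cell, made gene-level by tximport and not normalized. The annotation release is not given in the sources used here, and names and positions are those of GENCODE M21. Without molecular identifiers, PCR copies of a molecule count as separate reads.

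Following the study's methods, a cell was kept if it had 1000 genes, 100000 counts and no more than 30% mitochondrial counts. Clusters were drawn in Seurat 5.3.0 (R 4.3.3) with 2000 variable genes, without the 7 genes and their relatives, 20 components and resolution 1.9, and classed by the highest marker list. The clusters of the mesenchyme-like class had none of its markers among their 10 leading genes, so values are also given by cluster number. No doublet caller was run, and 2 cells with discordant markers were set aside, whereas another, in the mesothelial-like class, was kept. Each cell is a library of its own. Levels, shares and intervals were computed in Python 3.11.15 with pandas 2.3.3, numpy 2.4.6 and scipy 1.17.1, and the functions for ratios and likeness were tested on simulated data. For comparisons of depth, cells were thinned to 100000 counts. A gene was tested at 5 CPM or more on either side and called when it was 2-fold or more apart in the same direction in all pairs of plates. The values named are those of the 7 genes, of 25 relatives and partners on a list, and of up to 3 genes per member with rho above 0 in all 6 plates and a mean of 0.3 or more, among genes found in 10% or more of the mesenchyme-like cells of every plate. Other leading genes of clusters were named after their values had been seen. The 7 genes and the lists were chosen with earlier results of these data known. Alternatives are described in the closing section. Promoters and positions of starts are from RefSeq, where 7 of 7 genes matched by symbol. Values of a few listed genes are left out here.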

Additional observations from a re-analysis of the deposited data

Results flagged for a closer look

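The difference in Barx1 detection between cells with and without Tlx1 went one way in both plates of each Cre line and the other way in both plates of the Prox1 line, at -17.6, -14.9 and 18.99 percentage points in the lines Nkx2.5, Nkx3.2 and Prox1. The difference between lines was not tested, and the Prox1 value rests on 13 cells with Tlx1, of which 3 were in plate 8A. Barx1 was also found in more cells of the Prox1 line as a whole.

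Among the 27 cells left out by the filter, whose median depth was 81 counts, Meis2 had at least 1 count in 4, Meis1 in 3, and Nkx3-2 and Tcf21 in 1 each. Nkx2-5, Tlx1 and Barx1 had none. No control wells were analysed here to set against these counts.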

How the results depend on the processing

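Of 548 values recomputed for 63 results, 507 stayed on the same side of their threshold or within their interval. The settings tried were a stricter cell filter, 10 counts for detection, thinning, resolution 0.8, classes from marker sums per cell, other scalings, leaving out the highest cell, and leaving out each plate. Some settings could not move some values. Resolution 0.8 gave the same mesenchyme-like cells, and the stricter filter removed none of those of the Nkx3.2 line. Putting back the cells set aside changed the Prox1 line only. A value could also change sign and be counted as the same. The log2 ratio of Nkx2-5 between Cre lines did so, from -0.49 to 0.35 without plate 6B. The count of 507 is therefore not a measure of stability. Setting aside clusters, and all alternatives of the mesenchyme over epithelium ratios, were added after seeing the data. Of the ratios of mesenchyme over epithelium, Meis2 alone fell short of 2-fold, without plate 8B (0.81 to 1.95 over both plates left out), which left 6 of 7 genes past it.

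Detection moved with the plate left out from 8.64% to 32.2% for Nkx2-5, 29.6% to 47.1% for Nkx3-2 and 22.2% to 37.9% for Tlx1 in the Nkx2.5 line. In the Prox1 line it moved from 9.09% to 22.7% for Tlx1, 51.5% to 81.8% for Barx1, 97.7% to 100% for Meis1 and 93.9% to 100% for Meis2, and in the Nkx3.2 line from 95.7% to 100% for Meis2. Nkx3-2 in the Nkx3.2 line was at 48.8% both at 10 counts and after thinning. In the Nkx2.5 line, Meis1 was at 95.2% after thinning and Meis2 at 77.4% at 10 counts.

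Of the log2 ratios between Cre lines, with plates left out Nkx2-5 ran from -3.31 (without plate 6A, past 2-fold) to 0.35, Barx1 from 0.29 to 1.16 and Tcf21 from -1.31 to -0.87 (short of 2-fold without plate 6B). Without cluster 6, Tlx1 was 0.96, Barx1 1.30, Tcf21 -0.85 and Meis1 0.47, and in clusters 0, 1, 3 and 4 alone Barx1 was 1.57 and Tcf21 -0.74. Genes past 2-fold numbered 1 to 2 higher and 0 to 2 lower over the plates left out, 0 lower without cluster 6, and 2 higher and 0 lower in clusters 0, 1, 3 and 4.

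Co-detection reversed without plate 6A for Tlx1 with Nkx2-5 in the Nkx2.5 line (-8.69, up to 23.1 points) and without plate 8A for Barx1 with Nkx2-5 in the Prox1 line (-0.89, up to 55.2). Barx1 with Nkx2-5 ran from -1.03 to 38.996 points in the Nkx2.5 line and -4.84 to 12.7 in the Nkx3.2 line (-0.31 at 10 counts). Barx1 with Nkx3-2 ran from -6.10 to 20.2 in the Nkx2.5 line, -18.8 to 8.33 in the Nkx3.2 line (3.92 without cluster 6) and 13.5 to 46.99 in the Prox1 line. Tcf21 with Barx1, under 2 points in each line, also changed sign under some settings in every line. The longest transcript as length gave 66.2 CPM per kilobase for Meis1 and 46.2 for Meis2. The causes were not tested. No paired analysis was possible because no result comes from a test. The ratios of mesenchyme over epithelium were taken over the cells of both plates together, and only their direction was checked within each plate. Few cells limit some values by plate, such as 3 cells with Tlx1 in plate 8A.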

Other observations

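The 2 cells of plate 8A that were set aside had no count of Nkx2-5, Nkx3-2, Tlx1, Barx1 or Tcf21. The first, with endocrine markers at 68773 CPM and mesenchymal markers at 178.2 CPM, had Meis1 at 1.802 CPM and Meis2 at 7.20 CPM. The second, with immune markers at 9134 CPM and mesenchymal markers at 12.5 CPM, had no count of any of the 7 genes.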
